A study of Mus musculus with 10 samples.

Results

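The inducible nitric oxide synthase Nos2 and the genes of the NADPH oxidases were followed in colon tumors with and without Wntless. The set was defined by name and comprised 9 genes, of which 8 were among the 16875 gene names of the expression table: Nos2, the epithelial oxidase genes Duox2, Duoxa2, Nox1, Noxo1 and Noxa1, and the phagocyte oxidase genes Cybb and Ncf1. Cyba, the partner subunit that both Nox1 and Cybb need, was not analysed here. RNA was measured in 5 control tumors of Wls flox/flox mice and 5 tumors of Villin-WlscKO mice, which carried the same conditional allele together with Villin-Cre ERT2, a tamoxifen-dependent recombinase expressed in intestinal epithelium. All mice were on a C57Bl6 background and were reported as preferentially female and 6 to 10 weeks old at the start. All had received the mutagen azoxymethane (AOM) and 3 cycles of 2% dextran sulfate sodium (DSS), which injures the colon epithelium. The Villin-WlscKO mice in addition received tamoxifen at 80 mg/kg on 5 days, the first 30 days before the tumors were taken, while tumors without tamoxifen served as the control unless stated otherwise. Wls carries Wnt ligands to the cell surface, and the comparison asked how tumors with established growth differ once their epithelium can no longer secrete Wnts. The samples were macrodissected tumor pieces, so epithelium, stroma and leukocytes were measured together.

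NADPH oxidases are membrane enzymes that move electrons from NADPH to oxygen and so release superoxide or hydrogen peroxide. In the colon 2 kinds are built by epithelial cells. Duox2 makes hydrogen peroxide at the luminal surface and leaves the endoplasmic reticulum only together with its maturation factor Duoxa2, and Nox1 makes superoxide with the organizer Noxo1 and the activator Noxa1. Phagocytes use Cybb, also called gp91phox, with cytosolic partners such as the organizer Ncf1 (p47phox) and Ncf4 (p40phox). Nos2 makes nitric oxide from arginine, needs no calcium signal, and is controlled mainly through its transcription, in macrophages and in inflamed colon epithelium alike.

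Expression was given as FPKM, the number of fragments per kilobase of transcript and per 1000000 mapped fragments, which allows levels of different genes to be compared. Read numbers were not given, so the depth is unknown and precision rests on the spread between tumors. Values are the mean ± SD over 5 tumors, and n counts tumors, since the number of mice is not stated. If tumors shared a mouse, p-values measure only the spread between these samples. A change is given as the group mean of log2(FPKM + 1) in Villin-WlscKO tumors less that in controls, together with the standard error (SE) and adjusted p-value that limma gave over all 16757 genes whose mean reached 0.5 FPKM, and a gene was called at an adjusted p under 0.05. Wls itself lay between 61.3 and 79.9 FPKM in the control tumors and between 2.03 and 11.7 in the Villin-WlscKO tumors. Xist, made from the inactive X chromosome of females, was at most 0.42 FPKM in the control tumors and at least 439 in the Villin-WlscKO tumors, and the Y-linked Eif2s3y was at least 30.4 and at most 0.138 in the same order. By these genes the control tumors came from males, although females were reported as preferred, and the Villin-WlscKO tumors from females. Genotype, sex and tamoxifen therefore cannot be told apart in any comparison below. Villin-WlscKO tumors 2 and 3 stood apart with the squamous keratin Krt5 at 469.5 and 669 FPKM, against at most 0.315 in the other 8 tumors, and results were repeated without them.

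Of the 8 measured genes, all of which passed the filter on low values, 6 rose in Villin-WlscKO tumors and 0 fell. They were Nos2 and the 5 epithelial oxidase genes. Cybb and Ncf1 were not called in either direction. For comparison, 1026 of 16757 genes were called higher, which is 6.12%, and 4.75% were called lower. These shares also serve as background for the called counts of the gene lists below. In 5 of the 8 genes every Villin-WlscKO tumor lay above every control tumor, an arrangement found in 5.33% of all genes, and 4.76% of genes had every Villin-WlscKO tumor below.

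**Figure D1:**
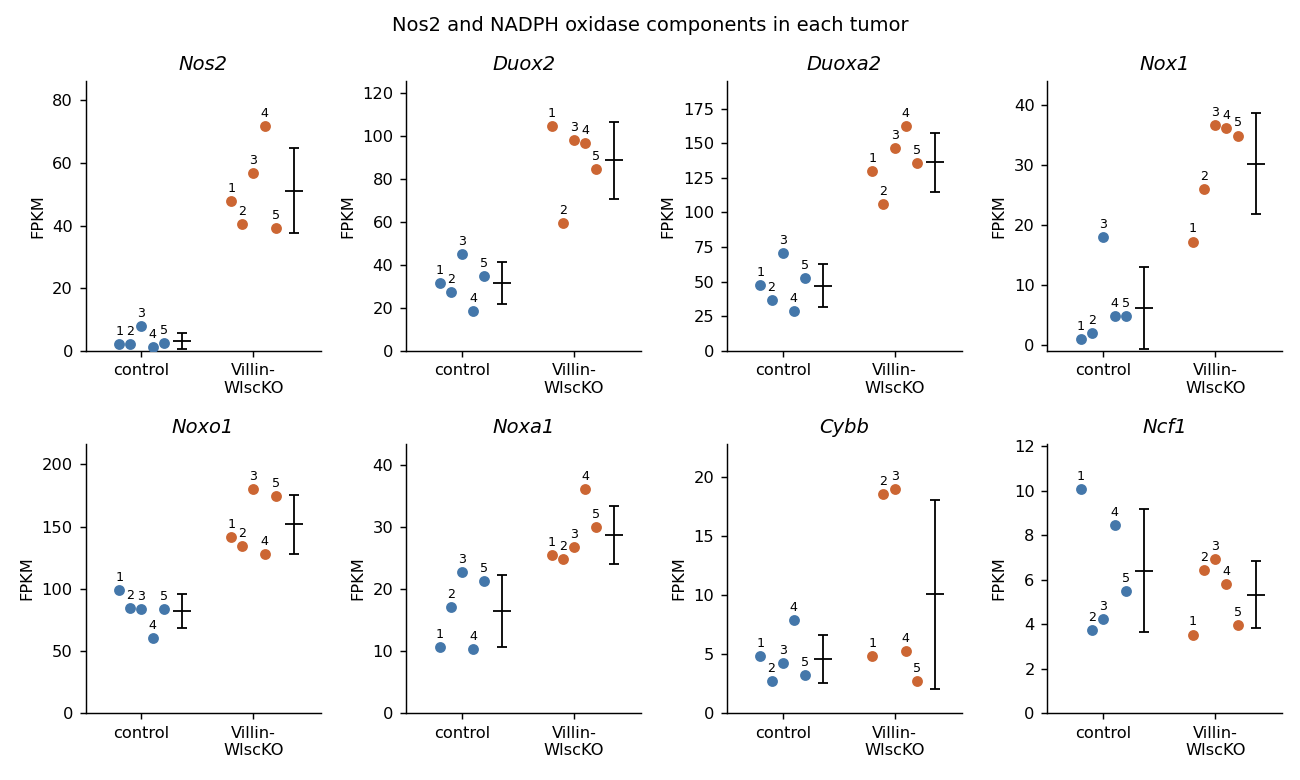
FPKM of the 8 measured genes in 5 control (blue) and 5 Villin-WlscKO (orange) tumors, 1 panel a gene, with linear axes of different height; small numbers name the tumors, and bars show the mean ± SD of each group. Nos2, Duox2, Duoxa2, Noxo1 and Noxa1 separate the groups, Nox1 does so except for control tumor 3 at 17.9 and Villin-WlscKO tumor 1 at 17.2, and high Cybb is seen in Villin-WlscKO tumors 2 and 3 only.

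Nos2 showed the largest change of the set. In the control tumors 1 to 5 it was at 2.01, 2.01, 7.85, 1.31 and 2.54 FPKM. In the Villin-WlscKO tumors 1 to 5 it was at 47.8, 40.4, 56.7, 71.8 and 39.3 FPKM. The groups did not overlap, and the lowest Villin-WlscKO tumor was far above control tumor 3, the highest control. The mean rose from 3.14 ± 2.67 to 51.2 ± 13.5 FPKM, a ratio of means of 16.3, and the log2 change was 3.80 (SE 0.33, 95% CI 3.07 to 4.53, limma adjusted p = 6.67e-05, n = 5 and 5). Without Villin-WlscKO tumors 2 and 3 the log2 change was 3.84. Nos2 lies on chromosome 11, from 78920787 to 78960254 on the plus strand (GRCm38, GENCODE M21). In bulk tissue more cells that express a gene and more RNA per cell cannot be told apart. Nos2 was also set against marker genes of macrophages and of epithelium in the same tumor, which cannot separate them either. These markers changed little (median log2 change -0.02 and 0.25), so the ratios largely restate the change of Nos2 itself. Relative to the mean log2(FPKM + 1) of 14 macrophage markers it was higher by 3.76 in Villin-WlscKO tumors, and relative to 9 pan-epithelial markers by 3.46. Both ratios separated the groups without overlap (exact permutation test over every way to arrange the tumors, p = 0.00794, the smallest it can give, and 0.0159 after Benjamini-Hochberg adjustment over 8 ratios, two-sided).

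Duox2 and its maturation factor Duoxa2 rose by nearly the same amount. Duox2 was at 31.6, 27.5, 45.0, 18.5 and 34.9 FPKM in control tumors 1 to 5 and at 104, 59.3, 98.0, 96.7 and 84.6 FPKM in Villin-WlscKO tumors 1 to 5. Duoxa2 was at 47.3, 36.9, 70.3, 29.0 and 52.3 FPKM in the controls and at 129.8, 106, 146, 163 and 136 FPKM in the Villin-WlscKO tumors. Neither gene overlapped between groups, and both had their highest control value in tumor 3, their lowest in tumor 4, and their lowest Villin-WlscKO value in tumor 2. The mean of Duox2 rose from 31.5 ± 9.72 to 88.6 ± 17.9 FPKM, with a log2 change of 1.49 (SE 0.22, limma adjusted p = 0.00237), and that of Duoxa2 from 47.2 ± 15.8 to 136 ± 21.0 FPKM, with a log2 change of 1.56 (SE 0.21, limma adjusted p = 0.00131). Their ratio within a tumor was about the same in both groups, with a log2 difference of -0.067 between groups (exact permutation p = 0.492). Relative to the 9 pan-epithelial markers Duox2 was higher by 1.16, without overlap (exact permutation p = 0.00794, adjusted p = 0.0159).

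Duox2 and Duoxa2 are head-to-head neighbours on chromosome 2. Duox2 spans 122279247 to 122298449 on the minus strand and Duoxa2 spans 122298900 to 122302885 on the plus strand, so that their GENCODE start sites are 451 bases apart. RefSeq puts the Duox2 start 222 bases further into the gene, which makes the distance 673 bases. Because the 2 genes moved together, both start regions are shown, each from 250 bases before to 50 bases after the RefSeq start (GRCm38.p6), read 5′ to 3′ on the strand of its own gene: chr2:122298178-122298477 on the minus strand for Duox2 and chr2:122298650-122298949 on the plus strand for Duoxa2. Capitals mark matches to 7 short motifs searched on both strands.
Duox2: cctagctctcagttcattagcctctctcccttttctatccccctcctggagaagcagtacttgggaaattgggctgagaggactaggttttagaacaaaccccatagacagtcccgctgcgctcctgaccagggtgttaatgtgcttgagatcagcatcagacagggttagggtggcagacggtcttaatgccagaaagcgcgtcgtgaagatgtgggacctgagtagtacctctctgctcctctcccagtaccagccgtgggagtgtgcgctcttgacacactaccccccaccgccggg
Duoxa2: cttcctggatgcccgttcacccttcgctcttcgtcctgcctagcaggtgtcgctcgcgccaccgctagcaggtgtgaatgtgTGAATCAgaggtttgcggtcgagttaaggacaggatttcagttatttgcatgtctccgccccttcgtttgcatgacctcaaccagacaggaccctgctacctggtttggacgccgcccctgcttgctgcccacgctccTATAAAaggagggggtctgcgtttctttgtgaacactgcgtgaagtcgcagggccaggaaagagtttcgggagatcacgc
The motifs were those of STAT factors (TTCNNNGAA), interferon response factors (GAAANNGAA), NF-kappa B, AP-1 (TGANTCA), CDX (TTTATG), TCF/LEF (CTTTGA) and the TATA box (TATAAA). Of 32851 RefSeq start regions of this length, 8.30% held the STAT motif, 8.56% the interferon response motif, 8.46% that of NF-kappa B, 7.81% that of AP-1, 11.9% that of CDX, 16.0% that of TCF/LEF and 13.6% the TATA box. The Duoxa2 region held an AP-1 match beginning at position -168 and a TATA box beginning at -30 from the start, and the Duox2 region held none of the 7. A match is a run of letters and no measurement of binding, and 8 of the 9 genes were found in the RefSeq regions, all but Nos2.

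The 3 parts of the Nox1 oxidase rose together, the catalytic subunit most. Nox1 was at 1.02, 1.89, 17.9, 4.77 and 4.76 FPKM in control tumors 1 to 5 and at 17.2, 26.0, 36.6, 36.2 and 34.9 FPKM in Villin-WlscKO tumors 1 to 5. Control tumor 3 stood far above the other controls and just above Villin-WlscKO tumor 1, so that 4 of 5 Villin-WlscKO tumors were above every control. The mean rose from 6.07 ± 6.82 to 30.2 ± 8.45 FPKM, a ratio of means of 4.97, with a log2 change of 2.54 (SE 0.52, limma adjusted p = 0.0117). With Villin-WlscKO tumors 2 and 3 left out the log2 change was 2.49 and the adjusted p was 0.0633, above the threshold. Nox1 lies on the X chromosome, from 134086421 to 134221956 on the minus strand in GENCODE, a span that overlaps Cstf2, Xkrx and Arl13a. Of 519 X-linked genes tested, 5.01% were called higher, against 6.27% of autosomal genes.

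The organizer Noxo1 had the highest level of the set in both groups. It was at 99.0, 85.0, 84.0, 60.5 and 83.8 FPKM in control tumors 1 to 5 and at 142, 135, 181, 128 and 174 FPKM in Villin-WlscKO tumors 1 to 5, without overlap. The log2 change was 0.88 (SE 0.14, limma adjusted p = 0.00331), from 82.4 ± 13.8 to 152 ± 23.8 FPKM. Noxo1, at 24696234 to 24700529 on the plus strand of chromosome 17, shares 2581 bases with Tbl3 on the opposite strand. The paper reports default parameters for its quantification and does not state whether strand was used. Tbl3 itself was at 27.6 ± 2.68 and 25.7 ± 3.79 FPKM, a log2 change of -0.10 (limma adjusted p = 0.598).

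The activator Noxa1 rose least and its call was the least stable. It was at 10.7, 17.1, 22.7, 10.3 and 21.2 FPKM in control tumors 1 to 5 and at 25.5, 24.8, 26.8, 36.1 and 29.995 FPKM in Villin-WlscKO tumors 1 to 5. The groups did not overlap, but control tumors 3 and 5 came close to the lowest Villin-WlscKO tumor. The log2 change was 0.82 (SE 0.22, limma adjusted p = 0.0382), from 16.4 ± 5.76 to 28.6 ± 4.63 FPKM. Leaving out 1 tumor at a time moved the adjusted p between 0.0204 and 0.0834, and it stayed under 0.05 only when control tumor 3 or control tumor 5 was left out. Without Villin-WlscKO tumors 2 and 3 it was 0.0936. Noxa1 (chromosome 2, 25085667 to 25095149, minus strand) overlaps Entpd8 on the opposite strand, which was at 23.4 ± 7.60 and 28.1 ± 8.54 FPKM, a log2 change of 0.28 (limma adjusted p = 0.582).

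The phagocyte oxidase genes behaved otherwise. Cybb was at 4.86, 2.70, 4.26, 7.90 and 3.23 FPKM in control tumors 1 to 5 and at 4.87, 18.5, 19.0, 5.26 and 2.75 FPKM in Villin-WlscKO tumors 1 to 5. Villin-WlscKO tumors 2 and 3 were high, and the other 3 lay within the range of the controls. The log2 change was 0.73 (SE 0.48, 95% CI -0.32 to 1.78, limma adjusted p = 0.374), and without tumors 2 and 3 it was -0.04. Ncf1 was at 10.1, 3.73, 4.22, 8.48 and 5.50 FPKM in the controls and at 3.54, 6.44, 6.91, 5.80 and 3.97 FPKM in the Villin-WlscKO tumors. All 5 Villin-WlscKO values except that of tumor 1 lay within the control range, and the log2 change was -0.18 (SE 0.26, 95% CI -0.76 to 0.40, limma adjusted p = 0.724). These intervals leave room for changes of Cybb as large as that of Duox2 but not for a rise of Ncf1 of that size. Cybb lies on the X chromosome (9435252 to 9487771, minus strand), and Ncf1 on chromosome 5 (134220053 to 134229625, minus strand), where it overlaps Gtf2ird2, which was at no more than 1.44 FPKM.

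The tumors with high Cybb were those with squamous keratin, while macrophage markers did not follow. The summed FPKM of 14 macrophage markers, all of which were in the table, ranged from 442 to 1018 in the controls and from 403 to 733 in the Villin-WlscKO tumors. Of the 14, 5 had a log2 change above 0 and 9 below, with a median of -0.02 against 0.01 over all genes, and 1, the lipopolysaccharide co-receptor Cd14, was called higher (log2 change 0.67, limma adjusted p = 0.0357, chosen for mention after its value was seen). Relative to these markers Cybb was higher by 0.69 in Villin-WlscKO tumors (exact permutation p = 0.0873, adjusted p = 0.116), and by 0.17 without tumors 2 and 3. Neutrophils also use Cybb. The sum of 8 neutrophil markers ranged from 233 to 787 FPKM in the controls and from 610 to 3520 in the Villin-WlscKO tumors. Villin-WlscKO tumors 2 and 3 were highest. There Ltf, which secretory epithelia make as well, was at 2278 and 2226 FPKM. S100a8 was also highest in those tumors, at 487 and 422 FPKM, whereas S100a9 was highest in tumor 2 and Ly6g in tumor 3. Of the 7 markers that were tested, 0 were called. All 7 had a log2 change above 0, with a median of 0.95. Without tumors 2 and 3 the median was 0.71 and 1 of the 7 was called higher. Mpo, Elane, Ngp and Camp, which define neutrophil granules, were not analysed here. The sum of 6 squamous markers was 998 and 1309 FPKM in Villin-WlscKO tumors 2 and 3 and at most 215 elsewhere. Markers of B cells, which also carry this oxidase, summed to at most 1.95 FPKM in the controls and 7.35 in the Villin-WlscKO tumors. The part of any of these cells in the level of Cybb was not tested.

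**Figure D2:**
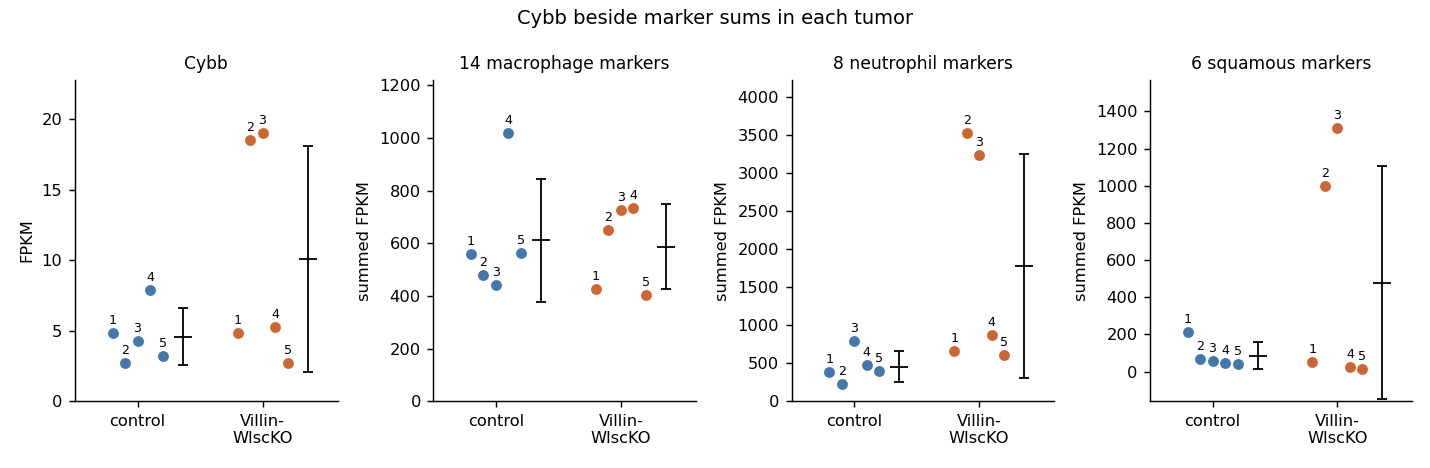
Cybb in FPKM and the summed FPKM of 14 macrophage, 8 neutrophil and 6 squamous markers in each control (blue) and Villin-WlscKO (orange) tumor; small numbers name the tumors and bars show the mean ± SD, which for the squamous markers reaches below 0. Villin-WlscKO tumors 2 and 3 are highest for Cybb, at 18.5 and 19.0 FPKM, and for neutrophil and squamous markers, but not for macrophage markers, where control tumor 4 is highest at 1018.

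Nox1 and Cybb are paralogs on the same chromosome, and their start regions are shown because 1 rose and the other was not called. The RefSeq starts were used, which lie 110102 bases (Nox1) and 18447 bases (Cybb) inside the GENCODE spans given above. The windows are chrX:134111805-134112104 for Nox1 and chrX:9469275-9469574 for Cybb, both on the minus strand, with the same motifs in capitals.
Nox1: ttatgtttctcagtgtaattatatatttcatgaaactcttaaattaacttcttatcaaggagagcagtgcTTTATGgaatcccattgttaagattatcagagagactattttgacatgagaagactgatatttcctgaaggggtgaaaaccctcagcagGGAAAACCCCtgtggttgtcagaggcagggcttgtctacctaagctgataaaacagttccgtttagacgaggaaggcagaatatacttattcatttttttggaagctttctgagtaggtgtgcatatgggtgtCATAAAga
Cybb: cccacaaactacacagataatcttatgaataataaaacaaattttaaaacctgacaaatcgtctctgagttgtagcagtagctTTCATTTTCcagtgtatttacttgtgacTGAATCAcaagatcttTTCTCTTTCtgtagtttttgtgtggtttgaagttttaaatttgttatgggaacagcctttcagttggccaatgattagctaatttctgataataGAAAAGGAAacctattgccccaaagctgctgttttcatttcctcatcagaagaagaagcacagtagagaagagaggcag
The Nox1 region held a match for NF-kappa B beginning at -91 and CDX matches beginning at -180 and 43. The Cybb region held 3 interferon response matches, beginning at -167, -123 and -29, and an AP-1 match at -139. Among the remaining regions, Ncf1 held a STAT match at -88 that overlapped an interferon response match at -82, Noxa1 held 1 for NF-kappa B at -249, Cyba held a TCF/LEF match at -68, and Noxo1, whose region had a GC content of 80.3%, held none.

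To compare epithelial and phagocyte oxidases within the same tumor, matched parts were set against each other on the log2(FPKM + 1) scale. The catalytic pair, Nox1 over Cybb, was at -0.04 ± 1.27 in the controls and 1.77 ± 1.15 in the Villin-WlscKO tumors, and the difference of 1.81 did not pass the test (exact permutation p = 0.0556, adjusted p = 0.0889). It depended on control tumor 3, without which it was 2.28 with an adjusted p of 0.0254. The organizer pair, Noxo1 over Ncf1, rose from 3.56 ± 0.62 to 4.61 ± 0.43, with every Villin-WlscKO tumor above every control (exact permutation p = 0.00794, adjusted p = 0.0159). The margin was narrow, as Villin-WlscKO tumor 2 was at 4.190 and control tumor 2 at 4.186.

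**Figure D3:**
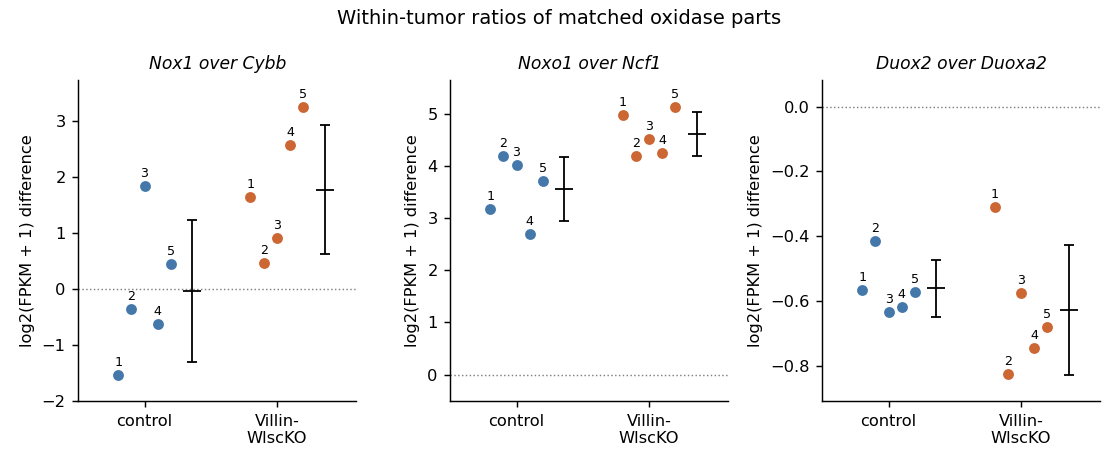
Difference of log2(FPKM + 1) between 2 genes of the same tumor for Nox1 and Cybb, Noxo1 and Ncf1, and Duox2 and Duoxa2, in control (blue) and Villin-WlscKO (orange) tumors; small numbers name the tumors, bars show the mean ± SD and the dotted line marks equal levels. Noxo1 over Ncf1 separates the groups, while the other two ratios overlap between them.

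The order of levels within the set changed mainly through Nos2 and Nox1. In the control tumors the mean FPKM fell from Noxo1 over Duoxa2, Duox2, Noxa1, Ncf1, Nox1 and Cybb to Nos2, and in the Villin-WlscKO tumors from Noxo1 over Duoxa2, Duox2, Nos2, Nox1, Noxa1 and Cybb to Ncf1. Nos2 thus moved from the last place to the fourth. In the controls the ranges of all neighbours in this order overlapped except those of Noxa1 and Ncf1. In the Villin-WlscKO tumors the ranges did not overlap between Duoxa2 and Duox2, Nos2 and Nox1, or Noxa1 and Cybb. Noxo1 exceeded Duoxa2 in 5 of 5 control tumors and in 4 of 5 Villin-WlscKO tumors. Within the controls, tumor 3 had the highest value for 5 of the 8 genes and tumor 4 the lowest for 5.

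Other genes of the family were read in the same way. Of 6 that were tested, 2 rose and 0 fell, against 6.12% and 4.75% of all genes, with a median log2 change of 0.37. Duoxa1, the maturation factor of Duox1, was at 1.58, 0.409, 0.655, 0.631 and 0.851 FPKM in control tumors 1 to 5 and at 2.47, 4.43, 8.35, 2.26 and 2.33 FPKM in Villin-WlscKO tumors 1 to 5. Its log2 change was 1.34 (SE 0.30, limma adjusted p = 0.0175), and it was highest in tumors 2 and 3. Duox1 was at most 0.0623 FPKM in 8 tumors and at 1.56 and 2.05 FPKM in those 2, and its mean over all tumors was below the filter, so that it was not tested. Duoxa1 overlaps Duoxa2 by 695 bases on the opposite strand, and its values could hold reads of that more abundant gene. Rac1, the GTPase that Nox1 uses, changed by 0.27 (SE 0.07, limma adjusted p = 0.0256) without overlap, from 334 ± 18.8 to 403 ± 24.9 FPKM.

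Further phagocyte parts were not called. Ncf4 had a log2 change of 0.27 (limma adjusted p = 0.581) and the leukocyte GTPase Rac2 one of 0.47 (0.216). BC017643, an older name of the Cybb chaperone Cybc1, was nearly constant at 21.4 ± 1.93 and 21.0 ± 1.22 FPKM (log2 change -0.03, limma adjusted p = 0.869). Nox3 and Nox4 were not analysed here. Without Villin-WlscKO tumors 2 and 3, 1 of the 6 tested genes of the family was called, Duoxa1, while Rac1 was not.

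**Figure D4:**
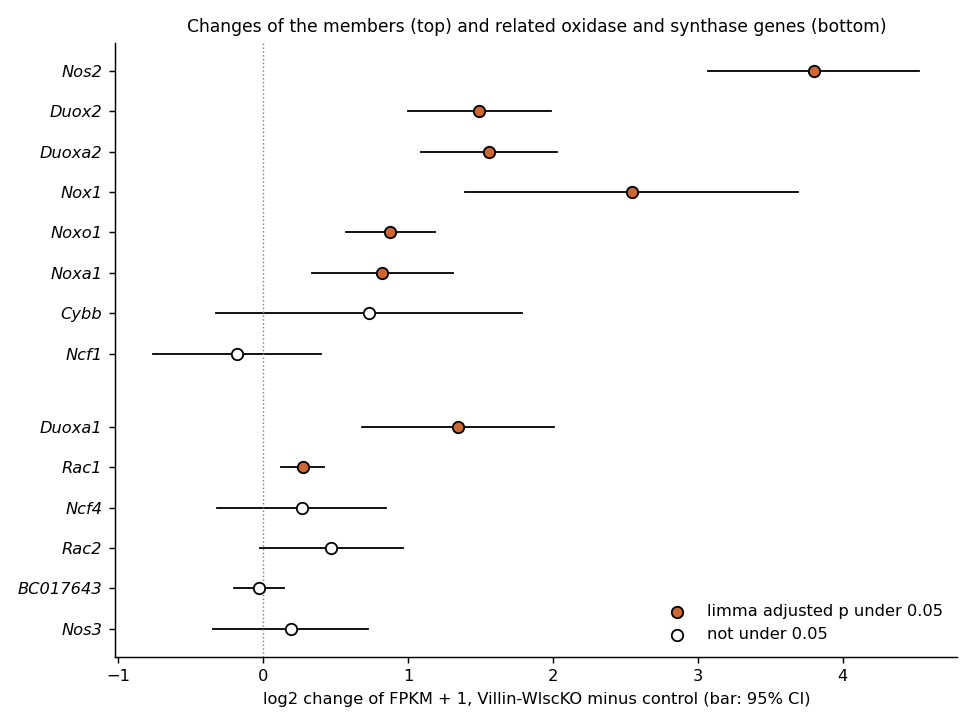
Log2 change of FPKM + 1, Villin-WlscKO minus control, for the 8 measured genes (top) and 6 related oxidase and synthase genes (bottom); points are estimates over 5 against 5 tumors, bars are 95% confidence intervals and filled points have a limma adjusted p under 0.05. Nos2 at 3.80 and Nox1 at 2.54 lie farthest right, and the intervals of Cybb, Ncf1, Ncf4, Rac2, BC017643 and Nos3 include 0.

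Among 17 tested genes of nitric oxide synthesis and arginine use, 3 rose and 1 fell, against 6.12% and 4.75% of all genes. The median log2 change of the 17 was 0.155. Gch1, the first enzyme in the synthesis of tetrahydrobiopterin, the cofactor that Nos2 needs, rose by 0.70 (limma adjusted p = 0.00267) without overlap, while the later enzymes Pts and Spr were at 0.06 and -0.11 and were not called. Of the enzymes that break down the synthase inhibitor dimethylarginine, Ddah1 rose by 1.06 (limma adjusted p = 0.0123) and Ddah2 fell by 0.67 (0.0181), both without overlap. The endothelial synthase Nos3 was at 0.782 ± 0.459 and 1.07 ± 0.657 FPKM and was not called (log2 change 0.19, limma adjusted p = 0.683). Nos1 was not analysed here. Arg1, which competes for arginine, was at 53.9, 22.8, 45.6, 35.1 and 23.5 FPKM in control tumors 1 to 5 and at 75.4, 147, 189, 43.0 and 26.3 FPKM in Villin-WlscKO tumors 1 to 5. Its highest values were again in tumors 2 and 3, and its log2 change of 1.12 was not called (SE 0.51, limma adjusted p = 0.197). The third gene that rose, Nostrin (0.31, limma adjusted p = 0.0329), is named for the count only. Without tumors 2 and 3, 3 genes were called higher and 0 lower.

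Of 32 tested genes that handle superoxide, peroxide and thiols, 8 rose and 0 fell, against 6.12% and 4.75% of all genes. The median log2 change of the 32 was 0.167. Gpx2, the glutathione peroxidase of gut epithelium, rose by 1.44 (SE 0.16, limma adjusted p = 0.000324), from 551 ± 97.8 to 1498 ± 262 FPKM. The quinone reductase Nqo1 rose by 1.02, sulfiredoxin Srxn1 by 0.81, the glutathione synthesis enzyme Gclc by 0.69, thioredoxin Txn1 by 0.69 and its reductase Txnrd1 by 0.64, with limma adjusted p between 0.000285 and 0.00687 and no overlap in any of them. Prdx5 (0.38) and Gsr (0.35) completed the 8. Some other enzymes that act on superoxide or hydrogen peroxide were not called: Sod1 and Sod2 were both at 0.12, Gpx1 at 0.02, Prdx1 at 0.12 and catalase (Cat) at 0.36, with limma adjusted p between 0.0985 and 0.925. Hmox1, the heme oxygenase, was at -0.67 (limma adjusted p = 0.120). Of the heme peroxidases, which use hydrogen peroxide, Lpo was at 1.05 (limma adjusted p = 0.0691) and Pxdn at 0.39 (0.560). Prdx5, Gsr and the genes not called were picked for their roles after the values were seen. Without Villin-WlscKO tumors 2 and 3, 6 of the 32 genes were called higher.

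Of 13 tested genes on the routes by which cytokines and bacterial products are known to induce Nos2 and Duox2, 4 rose and 0 fell. Over all genes 6.12% were called higher and 4.75% lower. The median log2 change of the 13 was 0.26. Irf1, an interferon-induced transcription factor that Nos2 requires in macrophages, rose by 1.48 (SE 0.10, limma adjusted p = 1.18e-05), from 48.8 ± 4.26 to 139 ± 17.5 FPKM, without overlap. Ifngr1 (0.59, limma adjusted p = 0.0228) and Tlr4 (0.55, limma adjusted p = 0.0236) also rose, with overlap. Il1b, Tnf, Nfkb1, Rela and Stat3 were not called, with log2 changes between -0.11 and 0.32. Ifng, named after its values were seen, was at most 0.0584 FPKM in the controls and between 0.185 and 1.35 FPKM in the Villin-WlscKO tumors. It was below the filter and not tested. Il17a, Il17f and Il22 were not analysed here. Without tumors 2 and 3, 3 of the 13 genes were called higher.

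**Figure D5:**
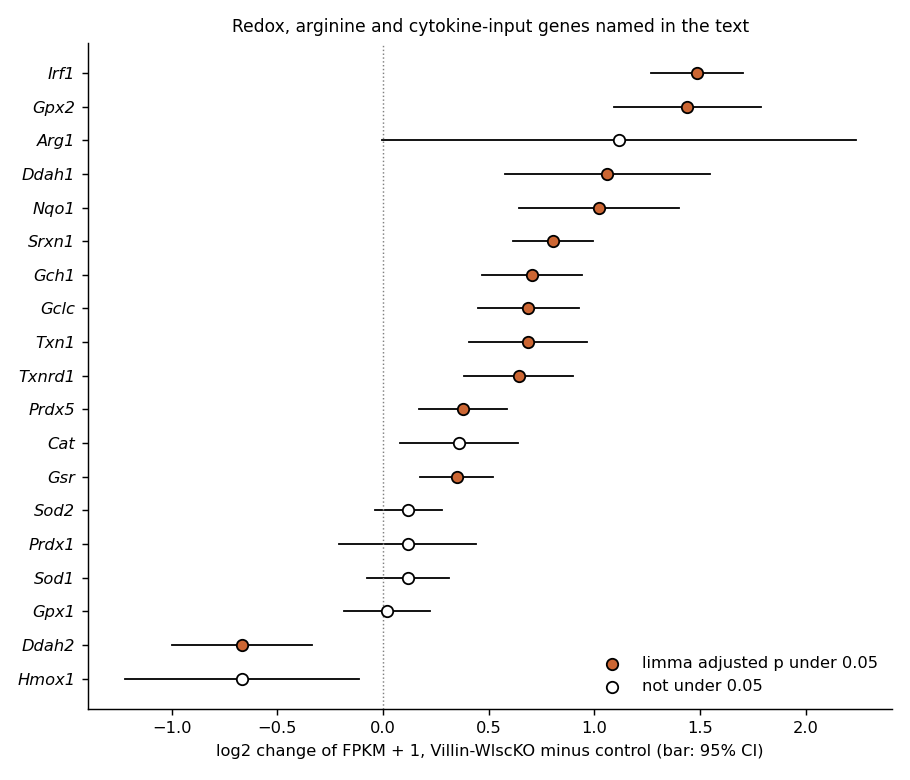
Log2 change of FPKM + 1, Villin-WlscKO minus control, of 19 genes of peroxide and thiol handling, nitric oxide synthesis and cytokine input, ordered by size, with 95% confidence intervals; filled points have a limma adjusted p under 0.05. Irf1 at 1.48 and Gpx2 at 1.44 are the largest, Ddah2 at -0.67 is the one called lower, and Sod1, Sod2, Gpx1 and Prdx1 lie within 0.12 of 0.

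Pan-epithelial markers were not called. The 9 pan-epithelial markers summed to between 6016 and 8489 FPKM in the controls and between 7295 and 9329 in the Villin-WlscKO tumors. All 9 had a log2 change above 0, with a median of 0.25, and of 0.34 without Villin-WlscKO tumors 2 and 3. Of 9 markers of differentiated colonocytes, 2 rose, against 6.12% of all genes. They were Ceacam1, by 1.02 (limma adjusted p = 0.00519, with values identical to those of another name in the table), and Krt20, by 0.91 (limma adjusted p = 0.0156). Of the 9 colonocyte markers, 8 had a log2 change above 0 and 1 below, with a median of 1.01. The 1 below, Cyp2c55, named after its values were seen, had the largest change of the list and was not called. It was at 6.71 ± 4.89 FPKM in the controls and 1.24 ± 1.68 in the Villin-WlscKO tumors (log2 change -1.73, limma adjusted p = 0.0969). The sum of the 9 ranged from 587 to 1323 FPKM in the controls and from 1120 to 2542 in the Villin-WlscKO tumors. Which epithelial cells made Duox2 and the Nox1 parts was not measured, and the part of colonocyte number in their levels was not tested. The 6 endothelial markers, which bear on Nos3, had a median log2 change of -0.01 and 0 called.

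Finally, the genes with patterns most like those of 4 members were listed. Likeness was the root mean square difference of standardized log2(FPKM + 1) over the 10 tumors, among 9786 genes whose mean FPKM was 5 or more, so that it includes the difference between groups as well as that between single tumors. Closest to Duox2 was Duoxa2 (0.167), before the NF-kappa B inhibitor Tnfaip3 (0.219) and Tmc5 (0.228). Closest to Nos2 were the heme synthesis enzyme Alas1 (0.206), Ttyh1 (0.209) and the oxidoreductase Ero1l (0.211), with Duoxa2 in the fourth place (0.212) and Duox2 in place 25. Closest to Nox1 were the goblet cell peptide Retnlb (0.206), the TNF receptor Tnfrsf1b (0.216) and Eif4ebp1 (0.257). Like Nox1, Retnlb rose, by 3.50 (limma adjusted p = 0.0110). The partners of Nox1 itself were farther down, Noxa1 in place 285 (0.540) and Noxo1 in place 967 (0.751). Closest to Cybb were Atp1b3 (0.255), Fabp5 (0.256) and Rcn1 (0.271), none of which was called, and its own cytosolic partner Ncf1 was in place 871 (1.01).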

How the data were processed

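RNA of 10 macrodissected AOM/DSS colon tumors had been sequenced from stranded mRNA libraries (AOM at 12.5 mg/kg, tumors collected 120 days later). Per the submitters' notes, the authors used FastQC for read quality and TopHat2 2.1.1 for mapping to GRCm38.p5, and quantified them with Cufflinks 2.2.1 and Cuffdiff, rerun without merging for values per tumor. The deposited values are FPKM. The paper reports default parameters for these steps. Beyond that, the annotation release, the choice of gene names and the use of strand are not given in the sources used here. Of 16875 names, 2419 share all values with another name. Groups came from the sample titles and genotypes, and all columns were assigned.

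The values were compared as log2(FPKM + 1) with limma 3.58.1 in R 4.3.3 (mean FPKM of at least 0.5, variance trend, Benjamini-Hochberg adjustment, two-sided), tested first on simulated data. Log2 ratios within tumors used exact permutation (Python 3.11.15, scipy 1.17.1, numpy 2.4.6, pandas 2.3.3), and figures matplotlib 3.10.9. Gene positions are those of GENCODE M21. Named were all members, called list genes without overlap (up to 6 a list, by size), the other oxidase and synthase genes, and the 3 most alike of 4 members. Members and lists were chosen with earlier results of these data known. Alternatives were a pseudocount of 0.1, 3 other scalings (FPKM sum of 1000000, median ratios, quantiles), no filter or a mean FPKM of 5, eBayes without trend or robust, a replicate block, identical entries counted once, single tumors left out and Villin-WlscKO tumors 2 and 3 left out. List counts without those 2 tumors were added after the data had been seen. The targeted gene Wls was checked in every tumor. Some list genes and their results are not reported here.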

Additional observations from a re-analysis of the deposited data

Results flagged for a closer look

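Control tumor 3 stood apart from the other controls for 2 genes by Dixon's criterion at the 95% level, with a critical value of 0.71 for 5 samples. Its Nos2 was at 7.85 FPKM against 2.54 in the next control, a gap of 0.811 of the group's range. Its Nox1 was at 17.9 FPKM against 4.77, a gap of 0.778 of the range. Chance flags about 1 in 20 groups, and 50 groups were examined. The same tumor had the highest sum of neutrophil markers of the controls, at 787 FPKM, and the part of those cells was not tested. Leaving it out, the log2 change of Nos2 was 4.12 and that of Nox1 3.01.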

How the results depend on the processing

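The log2 changes of Nos2 (3.63 to 4.23), Duox2, Duoxa2 and Noxo1 kept their direction and their call under all 21 alternatives, and Ncf1 stayed without a call. Without Villin-WlscKO tumors 2 and 3, Cybb reversed to -0.045, and Nox1 (2.49, adjusted p = 0.0633) and Noxa1 (0.91, adjusted p = 0.0936) lost their calls. With 3 against 5 tumors the ratios Noxo1 over Ncf1 (1.23), Nos2 over macrophage markers (4.05), Nos2 over pan-epithelial markers (3.44) and Duox2 over pan-epithelial markers (1.22) had an adjusted p of 0.0714, since fewer arrangements exist. In the same setting 654 genes were called higher and 438 lower, against 1026 and 796. Leaving out 1 tumor at a time gave 698 to 1177 genes higher and 507 to 806 lower, Noxa1 between 0.68 and 0.95, and Nox1 over Cybb between 1.44 and 2.28. The lowest counts came without Villin-WlscKO tumor 3 (698) and without control tumor 2 (507).

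Rescaling to an FPKM sum of 1000000 shifted the median of all genes to 0.097 and gave 1373 genes higher and 410 lower, 77.0% higher against 56.3%, and quantile normalization gave 894 and 1126, 44.3% higher. The cause was not tested. With the replicate number as a block, Noxa1 (0.82) had an adjusted p of 0.0726 and 991 and 636 genes were called. Same-numbered tumors correlated at 0.064, -0.087, 0.063, 0.10 and 0.16 after removal of group means, and only numbers 1 and 5 matched best with themselves, so the numbers were not taken as pairs. Sign flips of the 5 numbered differences cannot give a p below 0.0625, and no blocked ratio is given. Without tumors 2 and 3, genes called lower went from 1 to 0 for nitric oxide synthesis and genes called higher from 2 to 1 for the oxidase family. With unknown depth, low values such as Duox1 and Nos3 carry an unknown counting error.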
